A study of Mus musculus with 5 samples.

Results

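The 10 genes described here encode the NF-kB subunits (Rel, Rela, Relb, Nfkb1 and Nfkb2), members of the IkB family that bind them (Nfkbia, Nfkbid, Nfkbiz and Bcl3), and Tnfaip3, an enzyme that edits ubiquitin chains upstream of them. They were chosen by symbol, and all 10 were found by Ensembl ID among the 49927 gene IDs of the deposited tables. Regulatory T cells (Tregs), the T cells that restrain immune responses, had been sorted from C57BL/6 mice that all carried Foxp3Cre, a Cre recombinase expressed with Foxp3, the Treg lineage factor. There was 1 messenger RNA library in each of 5 groups. The group labelled Med23 KO was adipose Tregs of 10-month Med23fl/fl;Foxp3Cre mice, in which Cre should delete Med23, a Mediator subunit gene, in cells that express Foxp3. The 4 other groups were adipose Tregs of 10-month Foxp3Cre mice, of 4-month obese Foxp3Cre mice (with HFD in the title) and of 4-month Foxp3Cre mice with no obesity named (called lean here), and lymph node (LN) Tregs of 4-month Foxp3Cre mice. How many mice stand behind a library is not stated in the labels.

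NF-kB is a family of paired transcription factors. In resting cells IkB proteins such as the product of Nfkbia hold the pairs in the cytoplasm. Signals from the antigen receptor, from TNF family receptors and from IL-1 family receptors, among them the IL-33 receptor of adipose Tregs, activate kinases that mark IkB for destruction, and the pairs enter the nucleus. Among the genes they switch on are Nfkbia and Tnfaip3, whose products end the signal. The product of Rel is needed for the development of Tregs in the thymus, and Rel and Rela maintain mature Tregs.

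Promoters of several of these genes contain the letters of the NF-kB consensus. For each such gene 1 stretch with a match is shown as sequence context. RefSeq promoter windows (GRCm38.p6, not the build of the deposited tables) were matched by symbol for 7 of the 10 genes. Relb, Nfkb1 and Nfkbiz had none. The NF-kB consensus was searched on both strands of the 250 bases before each start site, and overlapping matches were allowed. It was present for 5 of the 7 genes, Rel, Nfkb2, Nfkbia, Nfkbid and Tnfaip3, against 4.46% of 27025 genes with such windows. Rela and Bcl3 had no match in theirs. A match describes letters and does not show binding. Capitals mark the consensus matches in each stretch, and bases in an annotated UTR of the same gene were left out, or cut to 30 bases around the match.
Rel (chr11:23770971-23771219, minus strand): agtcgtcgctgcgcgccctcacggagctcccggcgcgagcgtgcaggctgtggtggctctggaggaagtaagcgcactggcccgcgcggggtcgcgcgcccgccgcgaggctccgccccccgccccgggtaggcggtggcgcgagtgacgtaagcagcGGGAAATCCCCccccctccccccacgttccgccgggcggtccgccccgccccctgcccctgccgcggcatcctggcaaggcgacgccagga
Nfkbia (chr12:55492648-55492897, minus strand): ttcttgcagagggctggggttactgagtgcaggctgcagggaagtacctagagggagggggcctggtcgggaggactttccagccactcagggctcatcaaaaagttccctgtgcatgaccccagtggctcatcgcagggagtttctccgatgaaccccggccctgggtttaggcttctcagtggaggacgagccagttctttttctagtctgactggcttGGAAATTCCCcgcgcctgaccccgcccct
Nfkbid, second start site (chr7:30422156-30422405, plus strand): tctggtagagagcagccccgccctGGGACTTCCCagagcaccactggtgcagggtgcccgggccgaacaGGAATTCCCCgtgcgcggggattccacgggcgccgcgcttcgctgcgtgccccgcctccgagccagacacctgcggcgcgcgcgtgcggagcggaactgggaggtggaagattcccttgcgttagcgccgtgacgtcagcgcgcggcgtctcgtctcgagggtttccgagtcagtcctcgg
Tnfaip3, first start site (chr10:19015411-19015547, minus strand): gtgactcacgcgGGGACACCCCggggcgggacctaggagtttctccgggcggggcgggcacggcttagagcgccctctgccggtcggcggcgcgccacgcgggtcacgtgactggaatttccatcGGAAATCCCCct
Nfkb2, first start site (chr19:46304688-46304717, plus strand): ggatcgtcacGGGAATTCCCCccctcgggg
In Rel and in this stretch of Nfkb2, overlapping matches form 1 run of capitals. The same Nfkb2 window has a further match, which begins 11 bases before the start site and lies outside the 30 bases shown. The Nfkbia match ends 20 bases before the start site, and the matches in the shown Tnfaip3 stretch begin 125 and 12 bases before it.

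Some facts of the libraries bear on every comparison. With 1 library a group no test between conditions exists, and an interval after a fold is a 95% counting interval, which covers counting error only. The listed values stand for 4595046 reads in the library labelled Med23 KO, 9650769 in 10-month Foxp3Cre, 7496496 in obese, 8540594 in lean and 9694474 in LN Tregs. Med23 (ENSMUSG00000019984) stood at a scaled count of 13.9 in that library labelled Med23 KO against 7.02 in 10-month Foxp3Cre, 1.98-fold higher (1.39 to 2.84), so directions for that library rest on its label. Its 15.45 CPM there lay below the 33.35 of obese and the 46.84 of lean adipose, and above the 6.395 of LN. All 7 Treg markers (Cd3e, Cd3d, Cd4, Foxp3, Il2ra, Ctla4 and Ikzf2) were above 0 in all 5 libraries, but their levels were not even. Il2ra, the IL-2 receptor gene, had 342 CPM in the library labelled Med23 KO, 1413 in 10-month Foxp3Cre, 307 in obese and 1520 in lean adipose, against 291 in LN. Ctla4, an inhibitory receptor gene, had 2338 CPM in the library labelled Med23 KO, 2747 in 10-month Foxp3Cre, 886 in obese and 706 in lean adipose, against 1262 in LN. Foxp3 itself had 155 CPM in the library labelled Med23 KO, 185 in 10-month Foxp3Cre, 180.1 in obese and 216 in lean adipose, against 52.5 in LN. The 4-month adipose libraries stood apart from the other 3. The glycolytic gene Gapdh had 10.7 CPM (counts scaled to the same sum in every library, 1000000) in obese and 1.05 in lean against 548 CPM in the library labelled Med23 KO, 639 in 10-month Foxp3Cre and 979 in LN. The Y-linked gene Ddx3y had 562 CPM in obese and 560 in lean adipose and was listed at 0 in the other 3. The X-linked gene Xist went the other way. It had 602 CPM in the library labelled Med23 KO, 440 in 10-month Foxp3Cre and 228 in LN. In obese adipose it had 3.60 CPM, and in lean adipose it was listed at 0. Where a 4-month adipose library is compared with LN or 10-month Foxp3Cre, these differences cannot be told apart from tissue or age. For this reason each comparison of a 4-month adipose library with LN is followed by the 10-month Foxp3Cre library against LN. Macrophage and dendritic cell markers, 12 genes, summed to 105 CPM in the library labelled Med23 KO, 658 in 10-month Foxp3Cre, 4923 in obese and 897 in lean adipose, against 7.01 in LN. B cell markers summed to 13.9 CPM in the library labelled Med23 KO, 7.77 in 10-month Foxp3Cre, 25.75 in obese and 3.51 in lean adipose, against 101 in LN. Fibroblast and mesothelial markers were listed at 0 in the library labelled Med23 KO and summed to 948 CPM in lean adipose, and to at most 48.9 in the other libraries. CD8 T and NK cell markers summed to between 49.9 CPM in LN and 185 in 10-month Foxp3Cre, and adipocyte, granulocyte and mast cell markers to at most 14.8 CPM in any library. Gzmb alone had 175.6 CPM in 10-month Foxp3Cre and 176.1 in lean adipose, against 17.4 in LN. Cd8a and Cd8b1 went the other way, with 14.1 and 16.5 CPM in LN against 7.05 and 2.28 in 10-month Foxp3Cre. In lean adipose both were listed at 0, and Cd8b1 was highest in the library labelled Med23 KO, at 60.1 CPM. In such bulk samples, fewer cells of a type and less RNA per cell cannot be told apart.

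All 5 subunit genes were higher in each adipose library than in LN Tregs, and in obese and lean adipose Rel and Rela stood furthest above LN. Rel (ENSMUSG00000020275), the subunit most tied to lymphocytes, had 1314 CPM in the library labelled Med23 KO, 924 in 10-month Foxp3Cre, 1262 in obese and 1427 in lean adipose, against 66.95 in LN Tregs. Rela (ENSMUSG00000024927), the broadly used activating subunit, had 186.5 CPM in the library labelled Med23 KO, 56.8 in 10-month Foxp3Cre, 106 in obese and 215 in lean adipose, against 5.78 in LN, where it had 56 reads. For both genes the 4 adipose libraries lay far above LN, and for Rela they also spread widely among themselves.

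Nfkb1 (ENSMUSG00000028163) encodes the precursor that is processed to the partner of Rel and Rela. It had 1544 CPM in the library labelled Med23 KO, 1287 in 10-month Foxp3Cre, 1083 in obese and 1682 in lean adipose, against 117 in LN. Nfkb2 (ENSMUSG00000025225) encodes the corresponding precursor of the noncanonical pathway. It had 172 CPM in the library labelled Med23 KO, 92.7 in 10-month Foxp3Cre, 87.5 in obese and 159 in lean adipose, against 12.7 in LN. Relb (ENSMUSG00000002983), the partner of processed Nfkb2, had 104 CPM in the library labelled Med23 KO, 129 in 10-month Foxp3Cre, 97.9 in obese and 120 in lean adipose, against 41.4 in LN. Relb varied least of the subunit genes, with a highest level 3.11 times its lowest, where Rela reached 37.2 times.

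The IkB family split. Nfkbia (ENSMUSG00000021025), the classical cytoplasmic inhibitor, had 805 CPM in the library labelled Med23 KO, 3134 in 10-month Foxp3Cre, 1436 in obese and 2000 in lean adipose, against 1590 in LN. It was the only one of the 10 genes whose LN level lay within the range of the adipose libraries. Nfkbid (ENSMUSG00000036931) encodes a nuclear IkB protein known for its part in Foxp3 induction. It had 199 CPM in the library labelled Med23 KO, 329.8 in 10-month Foxp3Cre, 394 in obese and 668.5 in lean adipose, against 57.97 in LN. Nfkbiz (ENSMUSG00000035356), a nuclear IkB protein that acts as a coactivator at selected targets, had 904 CPM in the library labelled Med23 KO, 959.7 in 10-month Foxp3Cre, 943 in obese and 1416 in lean adipose, against 224.5 in LN. Its 3 lower adipose values were nearly level. Bcl3 (ENSMUSG00000053175), a nuclear partner of the processed Nfkb1 and Nfkb2 proteins, had 22.0 CPM in the library labelled Med23 KO, 35.8 in 10-month Foxp3Cre, 49.4 in obese and 129 in lean adipose, against 10.2 in LN. Lean adipose stood well above the other adipose libraries in Bcl3.

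Tnfaip3 (ENSMUSG00000019850), the feedback enzyme, had 2511 CPM in the library labelled Med23 KO, 2077 in 10-month Foxp3Cre, 2678 in obese and 2461 in lean adipose, against 843 in LN. Its 4 adipose values lay closest together of the 10 genes, as a ratio of highest to lowest.

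**Figure D1:**
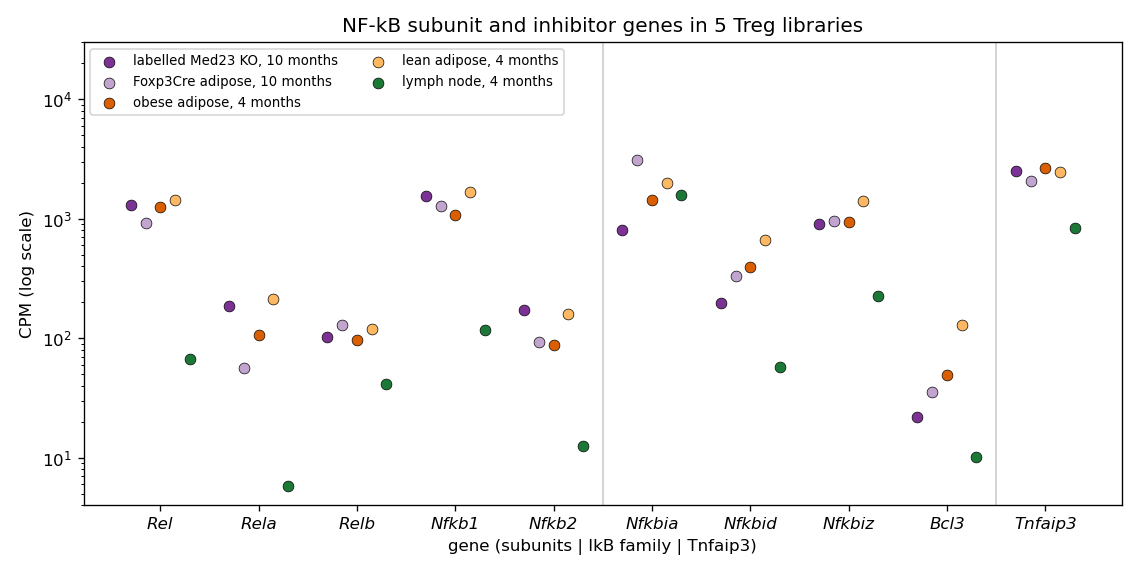
CPM of the 10 genes on a log axis, 1 point per library (1 library per group, so no error bars). For 9 genes the LN point is the lowest; for Nfkbia LN, at 1590 CPM, lies between obese and lean adipose.

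Levels of different genes were compared only per kilobase of the longest protein-coding transcript in GENCODE M21. On that scale Nfkbia was first in 10-month Foxp3Cre at 1986 CPM per kilobase, in obese at 910 and in lean adipose at 1267, and in LN at 1008. Tnfaip3 was first in the library labelled Med23 KO at 568 against 510 for Nfkbia. Of the summed level of the 5 subunit genes, Nfkb1 made up 52.7% in the library labelled Med23 KO, 57.9% in 10-month Foxp3Cre, 48.9% in obese and 52.8% in lean adipose, against 46.1% in LN. Rel made up 24.7% in the library labelled Med23 KO, 22.9% in 10-month Foxp3Cre, 31.4% in obese and 24.7% in lean adipose, against 14.6% in LN. Relb made up 6.59% in the library labelled Med23 KO, 10.8% in 10-month Foxp3Cre, 8.23% in obese and 7.02% in lean adipose, against 30.5% in LN. Relb thus held a larger share of the subunit level in LN than in any adipose library. The order of Rel and Nfkb1 depended on the length used. Per kilobase of coding sequence, an alternative added after the data were seen, Rel led in all 4 adipose libraries, with 49.2% in the library labelled Med23 KO, 47.1% in 10-month Foxp3Cre, 57.6% in obese and 49.1% in lean adipose, while in LN Nfkb1 still led with 36.1% against 34.2%.

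The level of Nfkbia relative to the subunit genes was lower in each adipose library than in LN. The ratio of Nfkbia to the sum of the 5 subunit genes, both per kilobase of transcript and within a library, was 0.717 in the library labelled Med23 KO, 3.68 in 10-month Foxp3Cre, 1.69 in obese and 1.64 in lean adipose, against 16.4 in LN. Such a ratio does not depend on how libraries are scaled. Obese and lean adipose differed little from each other in it. The library labelled Med23 KO was the only 1 of the 5 below 1. Per kilobase of coding sequence the ratio was 0.564 in the library labelled Med23 KO, 2.99 in 10-month Foxp3Cre, 1.23 in obese and 1.29 in lean adipose, against 15.2 in LN.

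**Figure D2:**
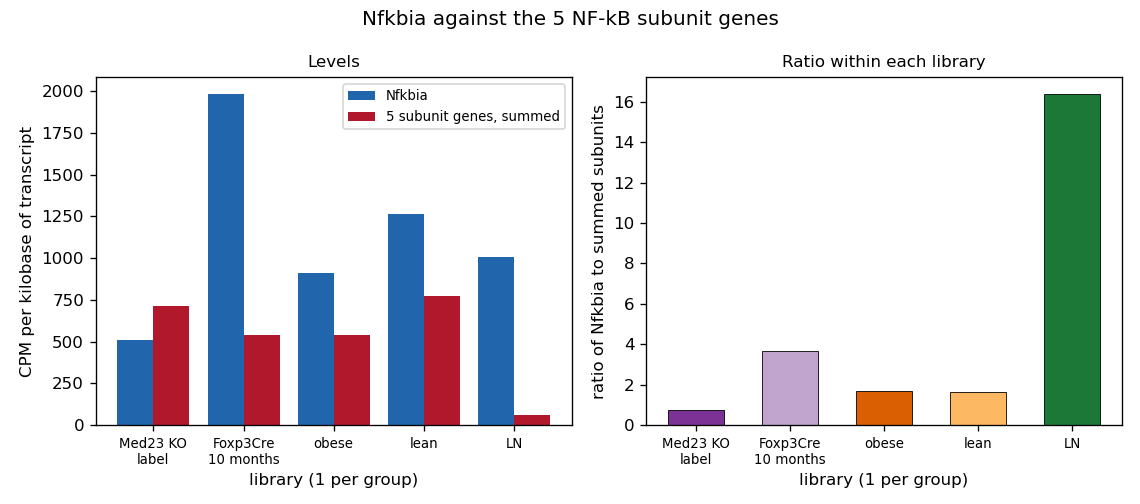
Left, level of Nfkbia and summed level of Rel, Rela, Relb, Nfkb1 and Nfkb2 in CPM per kilobase of transcript, 1 library per group. Right, their ratio within each library, 16.4 in LN and between 0.717 and 3.68 in the adipose libraries.

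Lean adipose against LN Tregs showed 9 of the 10 genes at least 2-fold higher and none at least 2-fold lower, where 37.6% of the 13540 measured genes were higher and 32.1% lower. For well expressed genes, averaging at least 100 in the compared libraries (2014 genes), these shares were 21.4% higher and 30.4% lower. The size threshold applies to log2((value + 1)/(value + 1)), on which the median of the 10 genes was 3.38 and that of all measured genes 0.14. Rel was 19.3-fold higher (17.9 to 20.9), Rela 33.7-fold (25.8 to 44.8), Nfkb1 13.1-fold (12.3 to 13.9), Nfkb2 11.3-fold (9.42 to 13.7) and Relb 2.63-fold (2.34 to 2.96). Of the nuclear IkB genes, Nfkbid was 10.4-fold higher (9.58 to 11.4), Bcl3 11.4-fold (9.29 to 14.2) and Nfkbiz 5.72-fold (5.46 to 5.99). Tnfaip3 was 2.65-fold higher (2.58 to 2.72). Nfkbia, at a scaled count of 1902 in lean adipose and 1669 in LN, was 1.14-fold higher (1.12 to 1.17) and under the threshold. All 11 measured macrophage and dendritic cell markers and all 5 measured fibroblast and mesothelial markers were higher in lean adipose too. Their part in these values was not tested.

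Obese adipose against LN Tregs also had 9 of the 10 genes at least 2-fold higher and none lower, where 41.8% of measured genes were higher and 23.7% lower. For genes averaging at least 100, 19% were higher and 29.8% lower. The median log2 ratio of the 10 genes was 2.27, against 0.44 over all measured genes. Rel was 16.7-fold higher (15.5 to 18.2), Rela 16.4-fold (12.5 to 21.9), Nfkb1 8.25-fold (7.75 to 8.79) and Nfkb2 6.13-fold (5.05 to 7.49). Relb, at 2.10-fold (1.86 to 2.38), stood just past the threshold, and below it when ratios were centred on all measured genes. Nfkbid was 6.03-fold higher (5.51 to 6.62), Bcl3 4.29-fold (3.43 to 5.42), Nfkbiz 3.73-fold (3.56 to 3.92) and Tnfaip3 2.82-fold (2.75 to 2.90). Nfkbia was 1.25-fold lower (1.22 to 1.28), at a scaled count of 1352 in obese adipose and 1685 in LN. All 12 macrophage and dendritic cell markers were higher in obese adipose too, and their part in these values was not tested.

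The 10-month Foxp3Cre adipose library against LN, which differ in age but are alike in Ddx3y, again had 9 of the 10 genes at least 2-fold higher and none lower, where 34.3% of measured genes were higher and 29.8% lower. For genes averaging at least 100 CPM, 22.1% were higher and 25.9% lower. In CPM, the median log2 ratio of the 10 genes was 2.29, against 0.10 over all measured genes. Rel was 13.8-fold higher (12.7 to 15.0), Nfkb1 11.03-fold (10.4 to 11.7), Rela 9.83-fold (7.46 to 13.2), Nfkb2 7.31-fold (6.05 to 8.90) and Relb 3.11-fold (2.78 to 3.49). Nfkbid was 5.69-fold higher (5.20 to 6.23), Nfkbiz 4.28-fold (4.08 to 4.48), Bcl3 3.50-fold (2.79 to 4.42) and Tnfaip3 2.46-fold (2.40 to 2.53). Nfkbia was 1.97-fold higher (1.93 to 2.01), just under the threshold on the log2 scale at 0.98. These 3 comparisons share the LN library, so its low values enter all of them. Of the 12 macrophage and dendritic cell markers, 3 were listed at 0 in 10-month Foxp3Cre (Itgam, Fcgr1 and Cd163) and 11 in LN (all but Lyz2). The 9 measured markers were all at least 2-fold higher in 10-month Foxp3Cre, and their part in these values was not tested.

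**Figure D3:**
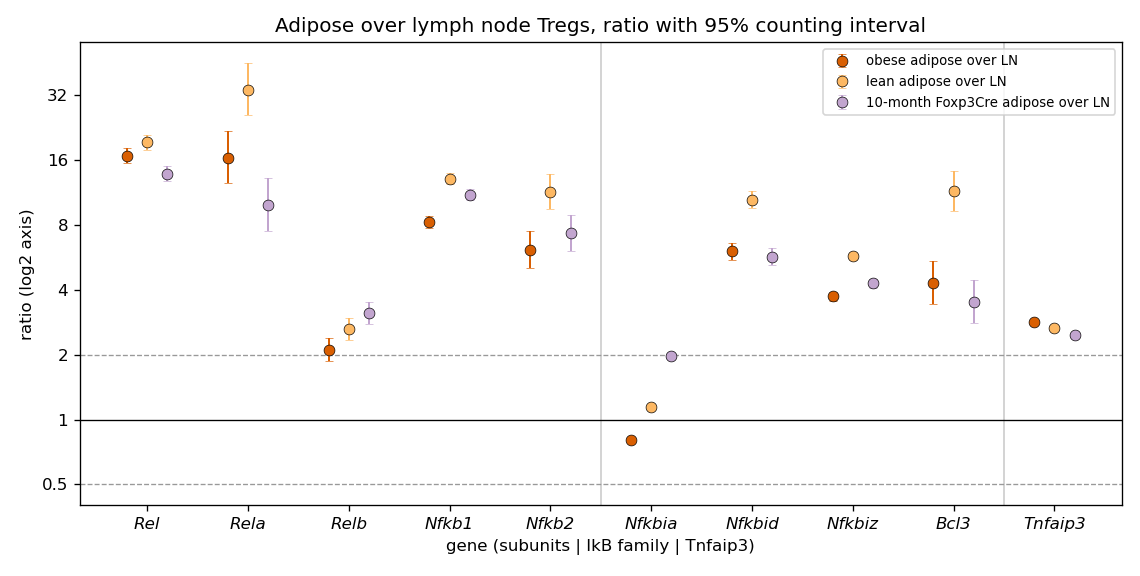
Ratio of obese, lean and 10-month Foxp3Cre adipose to LN for each gene on a log2 axis, with 95% counting intervals and dashed lines at 2-fold. Ratios are of scaled counts for obese and lean adipose and of CPM for 10-month Foxp3Cre. Nfkbia is the only gene inside the dashed lines, at 0.802 in obese, 1.14 in lean and 1.97 in 10-month Foxp3Cre adipose.

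Other genes of the pathway, listed by function, lay in both directions in lean adipose against LN. In this comparison 37.6% of all measured genes were higher and 32.1% lower. Of the other IkB genes, Nfkbie was 9.54-fold higher (8.04 to 11.4) and Nfkbib 3.00-fold higher (2.57 to 3.51), while Nfkbil1, an IkB-like gene, was listed at 0 against 4.33 scaled counts in LN. Of the IkB kinases, Tbk1 and the kinases upstream of them, 5 of 7 were higher and none lower, with Map3k7, which encodes the kinase TAK, at 7.74-fold (6.22 to 9.73), Map3k14, the NIK gene of the noncanonical pathway, at 4.88-fold (3.94 to 6.09) and Ikbkb at 3.36-fold (3.08 to 3.66). The antigen receptor arm went both ways, 2 of 4 higher and 2 lower. In it Malt1, a protease and scaffold gene, was 3.28-fold higher (3.00 to 3.59), while Prkcq, the kinase that starts this arm, was 5.26-fold lower (4.57 to 6.09).

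Of the IL-1 family and Toll receptor arm, 7 of 11 measured genes were higher in lean adipose than in LN and 2 lower. It was led by Tab3, a kinase adaptor gene with 60.2 scaled counts against 0, by Il1rl1, the IL-33 receptor gene, at 56.2-fold (51.2 to 61.8), and by its co-receptor gene Il1rap, with 8.02 against 0. The TNF receptor arm had 5 of 15 higher and 3 lower, with Birc3, a ubiquitin ligase gene that is itself an NF-kB target, 5.78-fold higher (5.43 to 6.15), the adaptor gene Traf1 5.38-fold higher (5.04 to 5.74) and Traf5 listed at 0 against 51.8 in LN. Other negative regulators had 3 of 12 higher and 1 lower, with the RNase gene Zc3h12a 6.88-fold higher (5.73 to 8.31), Rc3h1 2.25-fold higher (1.98 to 2.56) and Commd1 7.21-fold lower (4.45 to 12.3). Of 30 known NF-kB target genes, 14 were higher and 3 lower. Beside the counts of these lists, 37.6% of all measured genes were higher and 32.1% lower. Cxcl1 and Il6 had 539 and 313 scaled counts against 0, and Lta was listed at 0 against 286 in LN. The markers of other cells were also higher in lean adipose, with 11 of 11 measured macrophage and dendritic cell genes and 5 of 5 measured fibroblast and mesothelial genes, and their part in the Cxcl1 and Il6 values was not tested. By list, the median log2 ratio was 1.55 for the other IkB genes, 1.5 for the kinases, 0.19 for the antigen receptor arm, 1.42 for the IL-1 family and Toll arm, 0.51 for the TNF receptor arm, 0.49 for the other negative regulators and 0.91 for the target genes, against 0.14 over all measured genes.

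Obese adipose against LN had 1 of 3 other IkB genes higher and 1 lower, 5 of 7 kinases higher and none lower, 2 of 4 of the antigen receptor arm higher, 8 of 12 of the IL-1 family and Toll arm higher, 8 of 15 of the TNF receptor arm higher and 1 lower, and 3 of 12 negative regulators higher and 2 lower. Beside these counts, 41.8% of all measured genes were higher and 23.7% lower. Of the target genes 14 of 30 were higher, near the share of all measured genes, and 5 lower. Among the higher was the chemokine gene Ccl4, at 245-fold (195 to 313). The 10-month Foxp3Cre library against LN had 2 of 3 other IkB genes and 3 of 7 kinases higher and none lower. Of the antigen receptor arm 2 of 4 were higher and 1 lower, Prkcq, at 3.11-fold (2.77 to 3.49). Of the IL-1 family and Toll arm 5 of 11 were higher and 1 lower, and of the TNF receptor arm 6 of 15 higher and 1 lower. Of 28 target genes 11 were higher and 4 lower, with Lta 125-fold lower (81.6 to 202). Beside these counts, 34.3% of all measured genes were higher and 29.8% lower. In 10-month Foxp3Cre against LN, Nfkbie was 13.5-fold higher (11.4 to 16.1), Traf1 6.47-fold (6.07 to 6.90) and Ier3, an early response gene, 108-fold (68.9 to 179). Only 1 of its 12 negative regulators was higher, Zc3h12a, at 4.09-fold (3.38 to 4.99), and 1 lower, Pdlim2, at 8.35-fold (5.11 to 14.5). In obese adipose against LN the median log2 ratio was 0.36 for the other IkB genes, 1.2 for the kinases, 0.42 for the antigen receptor arm, 1.34 for the IL-1 family and Toll arm, 1.0 for the TNF receptor arm, 0.27 for the other negative regulators and 0.89 for the target genes, against 0.44 over all measured genes. In 10-month Foxp3Cre against LN the median log2 ratio was 1.68 for the other IkB genes, 0.99 for the kinases, 1.25 for the antigen receptor arm, 0.97 for the IL-1 family and Toll arm, 0.87 for the TNF receptor arm, 0.17 for the other negative regulators and 0.57 for the target genes, against 0.10 over all measured genes.

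The obese and lean adipose libraries compare fat Tregs with and without obesity at the same age. The values of 9 of the 10 genes were lower in obese adipose, 2 of them by at least 2-fold. Of 14804 measured genes 18.6% were at least 2-fold lower, near the share of the 10, and 34% at least 2-fold higher. The share of all genes lower by any amount was not computed. For genes averaging at least 100 CPM, 4.78% were lower and 6.14% higher. None of the 10 was at least 2-fold higher. The median log2 ratio of the 10 genes was -0.61 in CPM, against 0.20 over all measured genes. Bcl3 was 2.61-fold lower (2.32 to 2.94) and Rela 2.02-fold lower (1.86 to 2.20), the 2 genes past 2-fold. Nfkb2 was 1.81-fold lower (1.65 to 1.99), Nfkbid 1.70-fold (1.62 to 1.78), Nfkb1 1.55-fold (1.51 to 1.60), Nfkbiz 1.502-fold (1.46 to 1.55) and Nfkbia 1.39-fold (1.36 to 1.43). Relb was 1.23-fold lower (1.11 to 1.35) and Rel 1.13-fold (1.10 to 1.16). Tnfaip3 was 1.09-fold higher (1.07 to 1.11), and lower, at -0.08 on the log2 scale, after centring on all measured genes.

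Receptors and targets around these genes lay in both directions. Il1rl1 was 2.81-fold lower (2.74 to 2.88) in obese than in lean adipose, and Tab3 5.10-fold lower (4.08 to 6.42), while Myd88, the adaptor gene of IL-1 family receptors, had 21.1 CPM against 0. The antigen receptor kinase gene Prkcq was 3.06-fold higher (2.62 to 3.57) and Tbk1 3.33-fold higher (2.94 to 3.79). The TNF receptor arm had 4 of 14 genes higher and none lower, with Tnfrsf1b, the TNF receptor of Tregs, 2.59-fold higher (2.39 to 2.81). Of 29 target genes 6 were higher and 6 lower, with Irf4, a factor of effector Tregs, 5.35-fold lower (4.81 to 5.96), Il6 7.83-fold lower (6.96 to 8.82) and Ptgs2 5.68-fold higher (4.35 to 7.52). Over all measured genes 34% were higher and 18.6% lower, and the counts of both lists were near or below these shares. The macrophage and dendritic cell list was higher in obese adipose in 12 of 12 genes, and the 5 measured fibroblast and mesothelial genes were lower. Of the Treg markers Il2ra was 4.96-fold lower (4.74 to 5.18). Their part in these values was not tested. Across the lists the median log2 ratio was 0.00 for the other IkB genes, 0.15 for the kinases, 0.47 for the antigen receptor arm, 0.34 for the IL-1 family and Toll arm, 0.06 for the TNF receptor arm, -0.19 for the other negative regulators and -0.27 for the target genes, against 0.20 over all measured genes.

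10-month against 4-month lean Foxp3Cre adipose Tregs set age, and the differences between these libraries named above, against the same genotype and tissue. Of the 10 genes 3 were at least 2-fold lower at 10 months and none at least 2-fold higher. Of 13879 measured genes 32.7% were lower, again near the share of the 10, and 28.5% higher. For genes averaging at least 100 CPM, 10.5% were lower and 11.6% higher. Rela was 3.78-fold lower (3.44 to 4.17), with 56.8 CPM in the 10-month against 215 in the lean 4-month library. Bcl3 was 3.60-fold lower (3.19 to 4.07). Nfkbid was 2.03-fold lower (1.94 to 2.12), though within 2-fold when ratios were centred on all measured genes. Nfkb2 was 1.71-fold lower (1.57 to 1.86), Rel 1.54-fold (1.503 to 1.59), Nfkbiz 1.48-fold (1.44 to 1.52), Nfkb1 1.31-fold (1.28 to 1.34) and Tnfaip3 1.18-fold (1.16 to 1.21). Nfkbia was 1.57-fold higher (1.54 to 1.60), and the interval of Relb, 1.07-fold higher (0.986 to 1.17), held 1. The median log2 ratio of the 10 genes was -0.59, against -0.17 over all measured genes.

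Around them, Ikbkb, the main catalytic IkB kinase gene, was 3.20-fold lower (2.95 to 3.47) at 10 than at 4 months and Tbk1 3.50-fold higher (3.10 to 3.97). Bcl10, an adaptor of the antigen receptor arm, was 3.25-fold higher (2.91 to 3.63) and Cyld, a deubiquitinase that limits NF-kB, 2.23-fold lower (2.10 to 2.38). Of 30 target genes 4 were higher and 9 lower, with Il6 listed at 0 in the 10-month library against 329 CPM, Ccl4 47.9-fold lower (40.1 to 57.7) and Cxcl1 19.7-fold lower (17.5 to 22.4). Over all measured genes 28.5% were higher and 32.7% lower, so the count of lower targets was near that share. The macrophage and dendritic cell markers had 8 of 11 measured genes lower at 10 months and the fibroblast and mesothelial markers 5 of 5, while Ctla4 was 3.89-fold higher (3.78 to 4.00), and their part in these values was not tested. At 10 months against 4 months the median log2 ratio was 0.36 for the other IkB genes, -0.65 for the kinases, 0.46 for the antigen receptor arm, 0.28 for the IL-1 family and Toll arm, 0.33 for the TNF receptor arm, -0.45 for the other negative regulators and -0.25 for the target genes, against -0.17 over all measured genes.

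The library labelled Med23 KO was set against 10-month Foxp3Cre adipose Tregs, although Med23 itself was not lower in it than in 10-month Foxp3Cre. Rela was higher and Nfkbia lower in the library labelled Med23 KO. The same 10-month Foxp3Cre library was compared with lean adipose above, so its low Rela and high Nfkbia values enter both comparisons. Rela stood at a scaled count of 168 against 63.0 in Foxp3Cre, 2.66-fold higher (2.39 to 2.97), and was the only 1 of the 10 genes at least 2-fold higher. Nfkbia had 724 scaled counts against 3479 in Foxp3Cre, 4.81-fold lower (4.65 to 4.98), and Nfkbid had 179 against 366, 2.04-fold lower (1.90 to 2.20). These were the 2 of 10 genes at least 2-fold lower, where 34.9% of 13549 measured genes were lower and 28.6% higher. For genes averaging at least 100, 19.7% were lower and 10.7% higher, near the shares of the 10. Bcl3, with 19.8 scaled counts against 39.7, was 2.01-fold lower (1.60 to 2.53) by listed values and just under the threshold on the log2 scale, at -0.97.

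The other genes differed less. Nfkb2 was 1.502-fold higher (1.36 to 1.65) in the library labelled Med23 KO and Rel 1.15-fold higher (1.11 to 1.19), while Relb was 1.53-fold lower (1.38 to 1.71) and Nfkbiz 1.31-fold lower (1.26 to 1.36). Nfkb1 was 1.03-fold lower (0.999 to 1.06) and Tnfaip3 1.02-fold lower (0.998 to 1.05), with intervals that held 1. Scaling mattered here. The median log2 ratio of all measured genes was -0.15 by listed values and 0.15 with both columns scaled to the same sum. On the scale of equal totals Rela stood at 1.70, Nfkbia at -1.96, Nfkbid at -0.72, Nfkb1 at 0.26 and Tnfaip3 at 0.27 on the log2 scale, so Nfkb1 and Tnfaip3 took the other sign, and Nfkbid was no longer past 2-fold.

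The other IkB genes were lower in the library labelled Med23 KO as well. All 3 were at least 2-fold lower, with Nfkbib 2.92-fold lower (2.44 to 3.51), Nfkbie 2.23-fold lower (2.02 to 2.46) and Nfkbil1 listed at 0 against 4.37 scaled counts. At equal totals Nfkbie had 113 CPM against 204 in Foxp3Cre, less than 2-fold lower. Ikbkg, the regulatory subunit of the IkB kinase, had only 2.35 scaled counts against 39.9, 17.0-fold lower (9.61 to 33.2). It was the 1 lower gene of 7 kinase genes. The 2 higher were Map3k7, at 3.34-fold (2.97 to 3.76), and Ikbke, at 2.56-fold (2.27 to 2.90). Of 12 other negative regulators 1 was higher, Pdlim2, with 43.2 scaled counts against 2.07, and 1 lower, Tnip1, at 2.78-fold (2.33 to 3.33). The antigen receptor arm went both ways, with Prkcq 4.92-fold higher (4.39 to 5.53) and Malt1 4.25-fold lower (3.80 to 4.78). Il1rl1 was 6.63-fold lower (6.39 to 6.89) and Myd88 11.1-fold higher (7.44 to 17.2). The TNF receptor arm had 3 of 15 genes higher and 5 lower, with Tnfrsf4, the gene of OX40, 3.96-fold lower (3.86 to 4.07) and Tnfrsf1b 2.78-fold higher (2.59 to 2.99). Of 27 measured target genes 3 were higher and 11 lower. At equal totals these counts turned to 3 higher and 2 lower in the TNF receptor arm (Tnfrsf1a and Tnfrsf4 lower), 2 higher and 1 lower in the antigen receptor arm, and 4 higher and 10 lower among the targets. Over all measured genes 28.6% were higher and 34.9% lower by listed values. At equal totals 33.2% were higher and 31.3% lower. Cxcl2, a chemokine gene, had 43.4 scaled counts against 5433 in Foxp3Cre, 125-fold lower (110 to 143), and Ier3 and Cxcl1 were listed at 0 against 234 and 31.9. All 9 measured macrophage and dendritic cell markers were lower in the library labelled Med23 KO as well, 7 of them at equal totals, as were Il2ra, 5.11-fold (4.84 to 5.38), and, by listed values but not at equal totals, Cd3d, 2.12-fold (2.01 to 2.23), among the Treg markers, and their part in these values was not tested. Here the median log2 ratio was -1.51 for the other IkB genes, -0.23 for the kinases, -0.27 for the antigen receptor arm, -0.47 for the IL-1 family and Toll arm, -0.38 for the TNF receptor arm, 0.12 for the other negative regulators and -0.78 for the target genes, against -0.15 over all measured genes.

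**Figure D4:**
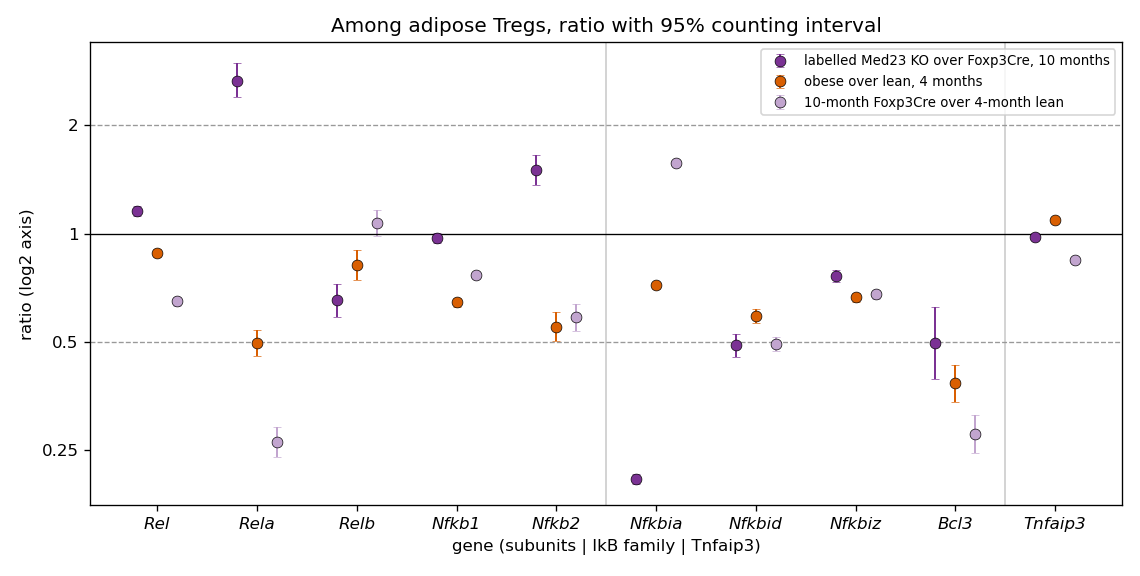
Ratio for each gene between adipose libraries on a log2 axis (library labelled Med23 KO over 10-month Foxp3Cre in scaled counts, obese over lean and 10-month over 4-month lean in CPM), with 95% counting intervals and dashed lines at 2-fold. Rela and Nfkbia show the widest spread of ratios, 0.264 to 2.66 and 0.208 to 1.57. The 10-month Foxp3Cre library enters both ends of each spread.

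The genes whose pattern over the 5 libraries was most like the median of the 10 were found among 3775 candidates with a mean of 50 CPM or more, by Euclidean distance of centred log2(CPM + 1). Pim1, a survival kinase gene, was nearest at a distance of 0.16, followed by Map2k3, a kinase gene of a stress pathway, at 0.29, Ppfia1 at 0.30, Zc3h12a at 0.30 and Col4a3bp at 0.33. Pim1 had 193.5 CPM in the library labelled Med23 KO, 212 in 10-month Foxp3Cre, 203 in obese and 299.6 in lean adipose, against 43.2 in LN. Among the 10 genes themselves Nfkbiz lay nearest to the median pattern, at 0.24, and Nfkbia farthest, at 2.55, followed by Rela at 2.04. The distance rests on 5 libraries and says nothing of shared control.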

How the data were processed

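Tregs from lymph node or adipose tissue were sorted, RNA was extracted with Trizol, and TruSeq libraries were sequenced, per the labels' protocols. Per the submitters' processing notes, TopHat2 2.0.9 and Bowtie2 2.0.6 were used with build mm8. No label names the counter, annotation or strand setting, and reads of genes overlapping 3 of the 10 genes in GENCODE M21 cannot be told apart (Gm43430 in Nfkb1, AC114539.1 and Psd at Nfkb2, Gm16175 and Gm16174 at Bcl3). The authors deposited 3 tables of 2 libraries each, with a scaled read count (signal) per gene. From the values, 100% of nonzero entries were whole multiples, within 0.01 read, of 1 step per library, the worth of 1 read. Values under 1 are listed as 0. Because of this floor and of 1 library a group, no count model was fitted.

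Folds are ratios of listed values within a table, or of CPM (each column scaled to a sum of 1000000) across tables, with exact Clopper-Pearson intervals at 95% from the recovered reads. Reads without molecular identifiers are not independent, so intervals cover counting error only. A gene was measured at 1 or more in either library and counted as higher or lower at 2-fold on log2((value + 1)/(value + 1)), which understates low genes. Alternatives were a pseudocount of 5, a minimum of 5, centring, another scaling and a 1.5-fold threshold. From each of 7 pathway lists and 7 marker lists the rule names the 3 measured genes with the largest ratio per comparison, of which some are printed. Other genes were named by their distance to the median pattern of the 10. Gapdh, Ddx3y and Xist were singled out after their values were seen. The members and lists were chosen with earlier results of these data known. Symbols came from a GENCODE M21 table and promoter sequences from RefSeq (GRCm38.p6). The calculations used pandas 2.3.3, scipy 1.17.1 and numpy 2.4.6 under Python 3.11.15, with matplotlib 3.10.9 for plots, and were tested on simulated data.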

Additional observations from a re-analysis of the deposited data

Results flagged for a closer look

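Nfkbia was the only 1 of the 10 genes whose adipose against LN ratios lay on both sides of 1 with counting intervals that did not reach 1. It stood at 0.802 in obese, 1.14 in lean and 1.97 in 10-month Foxp3Cre adipose over LN. The first 2 ratios are of scaled counts and the third of CPM. With all in CPM, the log2 ratio was -0.15 in obese, 0.33 in lean and 0.98 in 10-month Foxp3Cre adipose. The difference between these ratios was not tested, and they share the LN library.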

How the results depend on the processing

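In the 3 comparisons with LN, none of the 10 genes was at least 2-fold lower under the alternatives run (pseudocount, minimum, centring, scaling and threshold). The count of higher genes was 9 in lean adipose throughout, 8 in obese adipose with a pseudocount of 5 or when centred, where Relb was no longer past 2-fold, and 10 in 10-month adipose when scaled by the median of ratios or at 1.5-fold, where Nfkbia was added. Their median log2 ratio moved to 3.05 in lean adipose with a pseudocount of 5 and to 1.82 in obese adipose when centred on all measured genes. In obese against lean adipose the 2 lower genes became 1 with a pseudocount of 5, without Rela, and 6 at 1.5-fold, and the median became -0.81 when centred. In 10-month against 4-month adipose the 1.5-fold threshold gave 1 gene higher and 5 lower, and the median was -0.43 when centred and -0.40 when scaled by the median of ratios. In the library labelled Med23 KO against Foxp3Cre the 2 lower genes became 1 when centred or scaled to equal totals and 4 at 1.5-fold, and the median became -0.07 when centred and 0.09 at equal totals. Of 180 single gene values under alternatives, 5 took the other sign, for Tnfaip3 in obese against lean and for Nfkb1 and Tnfaip3 in the library labelled Med23 KO, and none of these was past 2-fold. The other counts stayed within 1.5 times and the other medians within the width set by the counting intervals. The median log2 ratio of all measured genes moved by more than 0.1 with the other scaling in lean and obese adipose against LN (to 0.28 and 0.60), in 10-month against 4-month adipose (to 0.02) and in the library labelled Med23 KO (to 0.15). No paired analysis was possible because each group has 1 library, and no library could be left out within a group. Depth limits Rela, Bcl3 and Nfkb2 in LN, with 56, 99 and 123 reads.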
